A study of Gallus gallus with 6 samples.

Results

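A small set of genes was on in wild type DT40 cells and at or near background in both linker histone H1 mutant lines. Its members were the probe sets whose deposited signal was at least 40 in both wild type arrays and at most 15 in all 4 arrays of the K11-5 and K11 lines. Of 38382 probe sets, control and reporter sets left out, 39 met the rule. The deposited signals themselves chose the members, so the low signals of the lines are described here with no test. Of the 39 probe sets, 31 carried a single gene symbol and stood for 28 genes, 25 with a gene name and 3 with a locus number only. A further 3 were assigned to several genes, and 5 had no symbol.

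The data came from 6 one-colour Affymetrix chicken arrays of total RNA. DT40 is a B cell line from a chicken bursal lymphoma. The K11-5 cells are labelled complete H1 null, the K11 cells carry a knock out of endogenous H1, and the wild type cells carry neither, with 2 arrays for each of the 3 groups. What separates K11-5 from K11 beyond those words, and whether a line is a single clone, is unstated in the sources used here. Cells of all groups, wild type included, grew at 39.5 °C with 100 nM Z-VAD-FMK, an inhibitor of caspases, since H1 null cells undergo apoptosis, per the labels. Nothing in the labels says that a group's 2 arrays hold RNA of separate cultures. Every p-value below rests on the spread between them, which may be technical.

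Linker histone H1 binds the DNA between nucleosomes where it enters and leaves the particle, and helps pack chromatin more tightly. It is known mostly as a factor that limits transcription, yet cells without it both gain and lose transcripts. A gene that reads at background on an array gives a bound and not a level, so a probe set below background may still stand for some transcript.

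In the K11-5 and K11 arrays most signals of the members were in the range of control probe sets with no target. As background served the 95th percentile over 23 control probe sets for tag and bacterial sequences, a deposited signal of 11.3. Of the 156 signals that the 39 sets had in the 4 arrays of the lines, 134 were at or below it and 59 were under 5, and 24 sets lay at or below it in all 4 arrays. The median signal of the members was 5.88 in K11-5, 6.93 in K11 and 74.3 in wild type. The wild type means ran from 43.7 to 388, so the members lay between the 73.1 and the 93.0 percentile of all probe sets there. Their median wild type mean was 70.3, where that of all 10026 probe sets with at least 40 in both wild type arrays was 173. In arrays of bulk RNA, fewer cells that express a gene cannot be told apart from less RNA per cell.

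**Figure D1:**
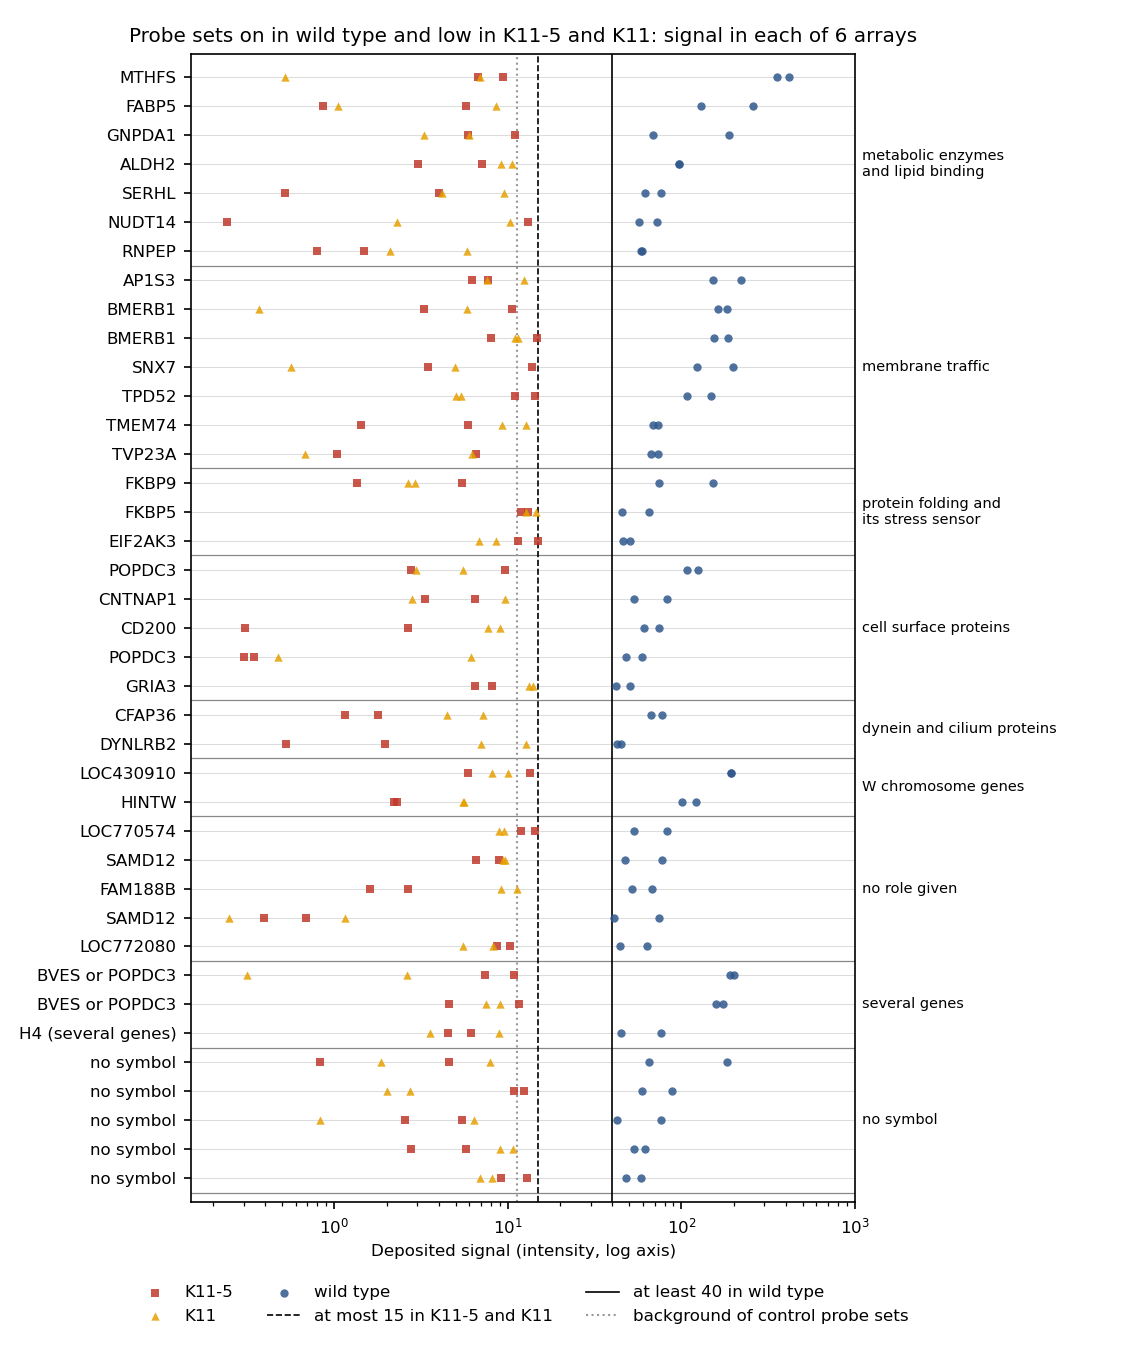
Deposited signal (log axis) of the 39 probe sets in each array, in rows by gene and grouped by function, with squares for K11-5, triangles for K11 and circles for wild type (2 points a group and row). Each row leaves an empty band between 15 (dashed) and 40 (solid), which the rule requires, and 134 of the 156 points of the lines lie at or left of the background of 11.3 (dotted).

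A signal of at most 15 in all 4 arrays of the lines was rare among the probe sets on in wild type. Of the 10026 probe sets on in wild type, 83 were at most 15 in both K11-5 arrays and 64 were at most 15 in both K11 arrays. The 39 members were 47.0% of the first and 60.9% of the second, and 0.389% of all sets on in wild type. The 44 sets that were low in K11-5 alone had a median K11 mean of 29.8 against a wild type median of 64.6, and in 39 of them the K11 mean was below the wild type mean. The 25 sets low in K11 alone had a median K11-5 mean of 22.1, against a wild type median of 57.3. The reverse rule, at most 15 in both wild type arrays and at least 40 in the 4 others, found 13 probe sets. Comparisons of K11-5 and of K11 with wild type share the wild type arrays, so their overlap is partly built in.

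**Figure D2:**
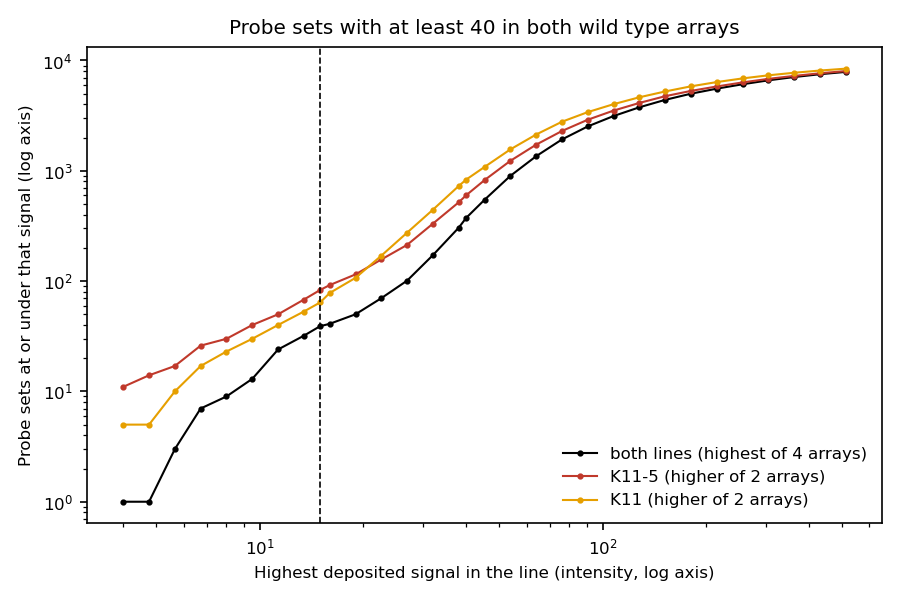
Number of probe sets on in wild type whose highest signal in K11-5 (red), in K11 (orange) or in both lines (black) was at or under the value on the x axis; both axes are logarithmic. At 15, the dashed line, the curves stand at 83, 64 and 39 sets, and the curve for both lines has no step there, passing 57 sets at 20 and 374 at 40.

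The thresholds divide a continuous range. In wild type, the members nearest to the limit were SAMD12 with 40.7, GRIA3 with 42.2 and DYNLRB2 with 42.6 in the lower array, and PCBD1 with 39.6 was the nearest named gene outside. In the lines, EIF2AK3 with a highest signal of 14.99, BMERB1 with 14.7 and FKBP5 with 14.6 were just inside. Just outside were a further probe set of HINTW with 15.6, one of SERHL with 15.9, and HOPX with 16.1. A wild type limit of 60 left 21 members, and a limit of 10 for the lines left 17. Without wild type replicate 2 the rule found 62 sets, and without any other single array it found between 41 and 48.

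Metabolic enzymes and a lipid carrier, 7 genes, formed the largest group. MTHFS, which returns stored 5-formyltetrahydrofolate to the folate cycle, had signals of 6.76 and 9.44 in K11-5, 6.92 and 0.522 in K11, against 357 and 419 in wild type. It was the brightest member in wild type, and all its signals in the lines were below background. On the normalized scale it was at least 29.3-fold lower in K11-5 and at least 29.3-fold lower in K11, the wild type mean over background. MTHFS lies at chr10:12654932-12687035 of the RefSeq assembly GRCg7b.

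FABP5, a carrier of fatty acids in the cytoplasm, had 5.70 and 0.859 in K11-5, 8.50 and 1.06 in K11, against 257.5 and 129 in wild type (chr2:120959936-120964972). Its wild type arrays differed by 1.998 times, and the lower of them was still 15.2 times the highest signal of the lines. GNPDA1, which turns glucosamine 6-phosphate back into fructose 6-phosphate, had 5.88 and 10.96 in K11-5, 3.29 and 5.99 in K11, against 187 and 68.4 in wild type. It was lost in both lines with a wild type spread of 2.73 times. ALDH2, the mitochondrial aldehyde dehydrogenase that clears acetaldehyde, had 7.07 and 3.02 in K11-5, 10.5 and 9.15 in K11, against 96.2 and 96.9 in wild type. The wild type arrays of ALDH2 were nearly equal, and none of its 4 signals in the lines passed background.

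The dimmer enzymes were likewise under 15 in all 4 arrays of the lines. SERHL, a hydrolase-like protein, had 4.02 and 0.523 in K11-5, 9.52 and 4.16 in K11, against 61.5 and 76.01 in wild type. NUDT14, which splits UDP-sugars, had 0.241 and 13.1 in K11-5, 2.31 and 10.3 in K11, against 72.6 and 57.0 in wild type. RNPEP, the exopeptidase aminopeptidase B, had 1.48 and 0.796 in K11-5, 5.83 and 2.09 in K11, against 59.0 and 58.4 in wild type. NUDT14 was uneven within each line, one array near zero and the other near background, while RNPEP was low throughout.

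Of the named genes, 6 act in membrane traffic or sit on membranes of the traffic route. AP1S3, the small subunit of the AP-1 clathrin adaptor, had 7.64 and 6.18 in K11-5, 7.62 and 12.4 in K11, against 219 and 152.5 in wild type (chr9:7936265-7951959). SNX7, a sorting nexin of endosomes, had 13.8 and 3.46 in K11-5, 0.563 and 4.93 in K11, against 199 and 123.5 in wild type. TPD52, a vesicle protein named for tumours that overexpress it, had 14.4 and 11.1 in K11-5, 5.02 and 5.38 in K11, against 149 and 107 in wild type. AP1S3, SNX7 and TPD52 were each above background in a single array of the lines.

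BMERB1, whose bMERB domain is of a kind that binds Rab proteins, was a member through a pair of probe sets. The first had 10.6 and 3.29 in K11-5, 5.79 and 0.370 in K11, against 163 and 183 in wild type. The second had 8.01 and 14.7 in K11-5, 11.03 and 11.4 in K11, against 186 and 153 in wild type. Both sets were chosen by the rule, so their likeness is a description (chr14:7490624-7536147). TMEM74, a membrane protein of lysosomes and autophagosomes, had 1.43 and 5.88 in K11-5, 9.26 and 12.7 in K11, against 68.7 and 73.7 in wild type. TVP23A, a Golgi membrane protein, had 1.04 and 6.54 in K11-5, 6.24 and 0.681 in K11, against 73.4 and 67.2 in wild type.

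The folding group joined a pair of FK506-binding prolyl isomerases with a kinase of the stress response. FKBP9, an isomerase of the endoplasmic reticulum, had 5.46 and 1.36 in K11-5, 2.66 and 2.93 in K11, against 151 and 73.9 in wild type. FKBP5, a partner of HSP90 that tunes steroid receptors, had 13.1 and 11.9 in K11-5, 14.6 and 12.7 in K11, against 45.3 and 65.1 in wild type. It was the only member with all 4 signals of the lines above background. EIF2AK3, also called PERK, which halts translation when unfolded proteins build up in the endoplasmic reticulum, had 14.99 and 11.5 in K11-5, 6.82 and 8.49 in K11, against 46.2 and 50.5 in wild type. It was at least 3.19-fold lower in K11-5, the smallest bound there, and at least 3.79-fold lower in K11.

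Cell surface genes included POPDC3, of a family of cyclic AMP-binding membrane proteins, and a pair best known from neurons. POPDC3, a Popeye domain protein of muscle and heart, was a member through 2 probe sets of its own. The brighter had 2.79 and 9.57 in K11-5, 5.50 and 2.95 in K11, against 108 and 125 in wild type. The dimmer had 0.303 and 0.345 in K11-5, 0.473 and 6.10 in K11, against 59.0 and 47.9 in wild type. A further pair of members was assigned to POPDC3 and its neighbour BVES together and is named for neither. Those had 10.8 and 7.37, and 11.6 and 4.56, in K11-5, with 2.61 and 0.316, and 8.96 and 7.498, in K11. In wild type they had 202 and 190.5, and 175 and 159.

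CNTNAP1, which links axons to myelinating glia, had 3.31 and 6.45 in K11-5, 2.81 and 9.60 in K11, against 82.7 and 53.5 in wild type. GRIA3, a subunit of AMPA glutamate receptors, had 6.49 and 8.15 in K11-5, 13.2 and 14.1 in K11, against 42.2 and 50.7 in wild type. CD200, a surface ligand that restrains immune cells, had 2.65 and 0.305 in K11-5, 7.65 and 8.98 in K11, against 61.2 and 74.7 in wild type (chr1:88935254-88979592). Of these, GRIA3 had both K11 signals above background and CNTNAP1 and CD200 had none above it in either line.

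The motor and cilium genes were CFAP36 and DYNLRB2. CFAP36, a protein of the cilium, had 1.16 and 1.78 in K11-5, 4.44 and 7.17 in K11, against 77.5 and 66.9 in wild type. DYNLRB2, a light chain of cytoplasmic dynein, had 0.530 and 1.97 in K11-5, 12.8 and 6.998 in K11, against 44.9 and 42.6 in wild type. All 4 signals of CFAP36 in the lines were below background, and DYNLRB2 was above it in 1 K11 array.

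HINTW and LOC430910 lie on the W chromosome, which in birds only females carry. HINTW, a diverged W copy of the nucleotide hydrolase gene HINT1, had 2.21 and 2.31 in K11-5, 5.55 and 5.58 in K11, against 121 and 101.2 in wild type (chrW:2901766-2911002). LOC430910, for which no role is given here, had 13.4 and 5.88 in K11-5, 8.13 and 10.1 in K11, against 193 and 193 in wild type (chrW:9067979-9075374). Of 17 W genes on the array, 7 had a probe set with at least 40 in both wild type arrays, and these 2 were lost. The probe sets of the other 5, NEDD4L, HNRNPKL, LOC426615, UBE2R2L and MBD2, kept signals of 27.9 or more in every array of the lines. Whether these sets read transcripts of the W genes alone was not tested. NEDD4L had 121.5 and 82.6 in K11-5, 100 and 113 in K11, against 248 and 296 in wild type. LOC426615 had 27.9 and 36.0 in K11-5, 28.7 and 39.4 in K11, against 59.3 and 73.3 in wild type. HNRNPKL had 115.3 and 131 in K11-5, 102 and 104 in K11, against 103 and 98.3 in wild type. NEDD4L and LOC426615 were lower in every array of the lines than in wild type, and HNRNPKL overlapped with it in K11.

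Among the members with no role given, SAMD12 was represented by 2 probe sets. Its brighter set had 6.54 and 8.90 in K11-5, 9.68 and 9.39 in K11, against 47.1 and 77.1 in wild type. Its dimmer set had 0.683 and 0.396 in K11-5, 1.16 and 0.249 in K11, against 40.7 and 74.6 in wild type. LOC770574, FAM188B and LOC772080 had wild type means of 67.8, 59.5 and 53.9. Their signals in the lines ran from 1.60, in K11-5 for FAM188B, to 14.3, in K11-5 for LOC770574. A probe set shared by 5 histone H4 genes was also a member, with 6.13 and 4.49 in K11-5, 3.56 and 8.93 in K11, against 76.01 and 44.8 in wild type. The 5 sets with no symbol had wild type signals of 42.6 to 184 and signals of 0.829 to 12.9 in the lines.

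Within wild type the replicates of most members lay close together. Replicate 1 was the higher array in 24 sets and replicate 2 in 15, and the median ratio of the higher to the lower was 1.23. It was over 2 in 3 sets, among them GNPDA1 and FKBP9, and at most 2.84. Across the members the lower wild type signal was 3 to 37.8 times the highest signal of the lines, with a median of 7.46. As lower bounds, with signals under background raised to it, the members were 3.19-fold to 29.3-fold lower in K11-5 (median 5.45) and 2.86-fold to 29.3-fold lower in K11 (median 5.31). GRIA3 and FKBP5 had both normalized K11 signals above background. Their K11 values, 2.86 for GRIA3 among them, are thus plain folds and no bounds. In each line 9 sets had a bound over 10. The bound grows with the wild type signal.

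Between the lines the members gave no called difference. The rule holds all 4 arrays at or under 15, so nothing is read from this comparison. In 13 sets both K11-5 signals lay below both K11 signals, a pattern found in 14.1% of all probe sets, and in 7 both lay above, found in 27.8%. In limma, with Benjamini-Hochberg adjustment and a threshold of 0.05, 0 of the 38 members tested were called, where 2.87% of all probe sets were called. Before adjustment 7 members reached 0.05, and the share of all probe sets that did so was not computed. With no intensity trend in the variance 0 were called and 11 reached 0.05 before adjustment. Leaving out K11 replicate 1 gave 2 calls.

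Some of the genes had further probe sets. Of the 28 named genes, 15 had 25 further sets on the array, of which 16, from 11 genes, were above background in both wild type arrays. In 14 of these 16 every signal of the lines lay below both wild type signals, a pattern found in 31.5% of all probe sets above background in both wild type arrays. In 6 the lines were also at or under 15, found in 3.61% of them. These sets measure the same transcripts in the same arrays that the rule used, and those dim in wild type were left out, so nothing is read from the counts. HINTW had a much brighter further set, with 0.709 and 2.02 in K11-5, 6.71 and 15.6 in K11, against 5396 and 4965 in wild type. A single K11 signal kept that set outside the rule. BMERB1 had a further set with 13.5 and 19.1 in K11-5, 25.3 and 15.5 in K11, against 649 and 690 in wild type. SERHL had a further pair, the brighter with 15.9 and 13.7 in K11-5, 10.2 and 13.1 in K11, against 173 and 159 in wild type. In HINTW, BMERB1 and SERHL these further sets were brighter in wild type than the members, and their folds or bounds were larger. Those of BMERB1 in both lines and of SERHL in K11-5 are plain folds, since both arrays of the line were above background. For HINTW the bound reached 427.9-fold in K11-5 and 341.8-fold in K11, lower than wild type in both.

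In other genes a further set was above background in the lines where the member set was near it. TPD52 had a further set with 50.5 and 91.7 in K11-5, 40.4 and 37.4 in K11, against 805 and 615 in wild type. FKBP5 had one with 66.3 and 48.4 in K11-5, 59.7 and 51.5 in K11, against 149 and 112 in wild type. By these sets both genes were lower in the lines than in wild type and still above background. TVP23A had a further set with 19.2 and 33.2 in K11-5, 20.4 and 19.3 in K11, against 24.8 and 26.5 in wild type, where the groups overlapped in K11-5 and wild type. RNPEP had a dim one with 0.902 and 15.4 in K11-5, 2.00 and 0.442 in K11, against 14.4 and 15.9 in wild type.

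Further sets of 4 other genes stayed close to background in most arrays of the lines. GRIA3 had a pair, the brighter with 3.98 and 2.11 in K11-5, 27.8 and 4.36 in K11, against 52.1 and 87.9 in wild type. NUDT14 had one with 6.69 and 0.179 in K11-5, 5.14 and 1.00 in K11, against 37.5 and 39.2 in wild type. POPDC3 had one with 0.490 and 0.439 in K11-5, 0.991 and 0.292 in K11, against 37.2 and 25.6 in wild type. LOC772080 had one with 4.46 and 14.3 in K11-5, 1.01 and 2.02 in K11, against 34.7 and 45.3 in wild type. These sets of NUDT14, POPDC3 and LOC772080 missed the rule because wild type was under 40 in at least 1 array, not because the lines were high. LOC772080 also had a set outside these 16, with 29.2 and 19.7 in K11-5, 27.6 and 4.21 in K11, against 3.10 and 27.3 in wild type, where the groups overlapped.

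For the members assigned to several genes, other sets of the same genes had signal in the lines. A set of BVES alone had 129.5 and 157 in K11-5, 52.7 and 54.1 in K11, against 110 and 91.2 in wild type, all above background. Another set of the same H4 genes as the member had 1479 and 1748 in K11-5, 311 and 297 in K11, against 520.5 and 363.5 in wild type. The H4 sets thus disagreed, and the cause was not tested.

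**Figure D3:**
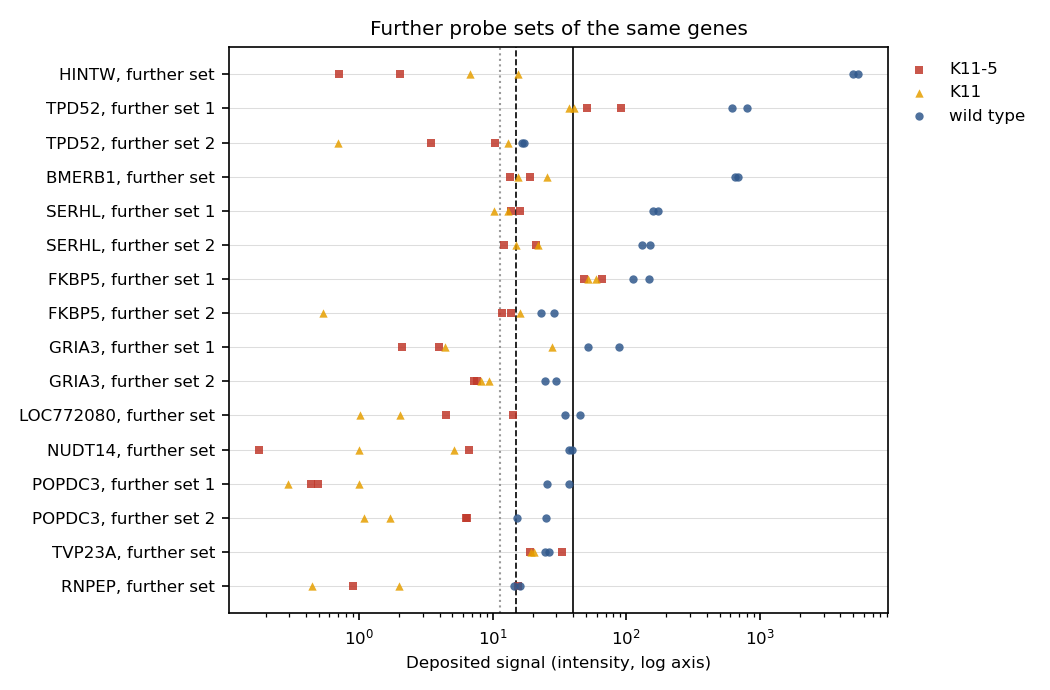
Deposited signal (log axis) in each array for the 16 further probe sets of named genes that were above background in both wild type arrays, with squares for K11-5, triangles for K11 and circles for wild type, and lines at 11.3 (dotted), 15 (dashed) and 40 (solid). In 14 rows all points of the lines lie left of both wild type points; the exceptions are TVP23A and RNPEP.

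The named genes were spread over 15 chromosomes of GRCg7b. Chromosome 2 held 6 of the 28, FABP5, FAM188B, FKBP9, SAMD12, TMEM74 and TPD52, or 21.4%, where it holds 9.50% of the 5724 placed genes on in wild type. Chromosome 4 held EIF2AK3, GRIA3 and LOC770574. Chromosome 1, the largest, held 2 of the 28 (7.14%, against 13.1% of the genes on in wild type), and the Z chromosome held none of its 245. The genes had a median length of 12.8 kb, against 17.1 kb for the 13004 placed genes on the array. These shares were not tested.

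In 3 places a pair of members lay within 1 Mb of each other. TPD52 (chr2:120401116-120520186) and FABP5 were 440 kb apart, with 4 genes of the array between them. RNPEP (chr26:653732-658740) and FKBP5 (chr26:113126-131730) were 522 kb apart with 23 genes between, and LOC772080 and CNTNAP1 on chromosome 27 were 406 kb apart with 33 genes between. The genes between were no members, which says little since the rule picks few genes anywhere. MRPL53, which lies between TPD52 and FABP5, fell in both lines (below).

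Genes beside the members were taken by gene order. For each of the 28 genes the 2 nearest tested genes on each side were taken, 108 in all. Their median distance was 48.0 kb and the highest 1922 kb, so some lay far from the lost gene. The probe sets used for them played no part in the rule, though BVES shares a pair of member sets with POPDC3. They were therefore tested with limma (Benjamini-Hochberg adjustment over 23063 probe sets). In K11-5 against wild type 8 of the 108 fell, or 7.41%, and 5 rose, or 4.63%, where 3.37% of all 9984 genes tested fell and 3.48% rose. In K11 against wild type 8 fell, again 7.41%, and 3 rose, or 2.78%, where 4.94% of all genes fell and 5.04% rose. The median log2 fold change of the neighbours was 0.01 in K11-5 and -0.04 in K11, against 0.02 and 0.00 for all genes tested.

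These counts changed with single arrays. In K11-5 the 8 that fell became 5 and 1 when K11-5 replicate 1 or 2 was left out, and 2 and 1 when wild type replicate 1 or 2 was left out. In K11 they became 3 and 2 without wild type replicates 1 and 2. On the deposited scale, where the median of all genes was -0.35 in K11, 20 neighbours fell and 1 rose in K11, and 24 fell and 2 rose with arrays centred on their medians. With centred arrays the median of all genes in K11 was still -0.29, and that of the neighbours was -0.33. The shares of all genes called under these settings are not given here, so nothing is read from these counts. Without the intensity trend in the variance, every limma call named below for neighbours, relatives and folate genes was lost except those of BTLA in K11-5 and SOCS1L in K11.

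The locus of CD200 held several of the falls. BTLA, an inhibitory receptor of lymphocytes directly beside it, had normalized signals of 16.5 and 9.29 in K11-5, 237 and 385 in K11, against 968 and 1843 in wild type. On the log2 scale it differed from wild type by -6.53 ± 0.36 (SE) in K11-5 (limma's adjusted p = 2.11e-05) and -2.14 ± 0.36 in K11 (limma's adjusted p = 0.00853, lost without wild type replicate 2). CD200L, a relative of CD200 on its other side, fell by 2.05 ± 0.32 in K11-5 (limma's adjusted p = 0.00702) and had 0.47 ± 0.32 in K11. CGGBP1, a protein that binds CGG repeats, fell by 1.34 ± 0.28 in K11-5 (limma's adjusted p = 0.0241) and had 0.33 ± 0.28 in K11. The other neighbour of CD200, LOC770026, was not called, with 0.35 ± 0.94 in K11-5 and 0.67 ± 0.94 in K11. Of the 4 neighbours 3 thus fell in K11-5 and 1, BTLA, in K11. In K11-5, BTLA and CD200L were each above background in 1 of 2 arrays. The calls of CD200L and CGGBP1 in K11-5 were lost without K11-5 replicate 2 and without either wild type replicate, and that of CGGBP1 also without K11-5 replicate 1.

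MRPL53 and SOCS1L were the other neighbours that fell in both lines. MRPL53, a protein of the mitochondrial ribosome 8 kb from FABP5, had normalized signals of 424 and 438 in K11-5, 293 and 335 in K11, against 849 and 976 in wild type. It fell by 1.08 ± 0.16 in K11-5 (limma's adjusted p = 0.00638) and by 1.53 ± 0.16 in K11 (limma's adjusted p = 0.00106). SOCS1L, 14 kb from SERHL, had 58.7 and 66.8 in K11-5, 25.4 and 22.9 in K11, against 163 and 164 in wild type. It fell by 1.36 ± 0.25 in K11-5 (limma's adjusted p = 0.0138) and by 2.67 ± 0.25 in K11 (limma's adjusted p = 0.000644). Both stayed above background in every array of the lines. In K11-5 the call of MRPL53 was lost without K11-5 replicate 2 or wild type replicate 2, and that of SOCS1L without any single array of K11-5 or wild type.

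Of the other neighbours, STMN2, a microtubule regulator of neurons near TPD52, rose in both lines, by 0.81 ± 0.11 in K11-5 (limma's adjusted p = 0.00396) and by 1.23 ± 0.11 in K11 (limma's adjusted p = 0.000571). Its call in K11-5 was lost without K11-5 replicate 2 or wild type replicate 2. EMC2, a subunit of the membrane insertion complex of the endoplasmic reticulum beside TMEM74, fell by 0.96 ± 0.14 in K11 (limma's adjusted p = 0.00443, lost without either wild type replicate) and had -0.49 ± 0.14 in K11-5. Next to AP1S3, the granule protein gene SCG2 was at least 5.29-fold higher in K11-5 (limma's adjusted p = 0.00703, lost without K11-5 replicate 2 or wild type replicate 2). In K11-5 against K11, 4 neighbours fell and 3 rose, where 2.33% of all genes fell and 1.55% rose. Other falls in K11 against wild type included HEY1 next to TPD52 and ARNT2 near MTHFS. HEY1 fell by 2.79 ± 0.72 in K11 (limma's adjusted p = 0.0453) and had -2.32 ± 0.72 in K11-5. ARNT2 was at least 3.40-fold lower in K11 (limma's adjusted p = 0.0222) and had -1.54 ± 0.45 in K11-5. Both calls were lost without either wild type replicate, that of HEY1 also without K11 replicate 2 and that of ARNT2 without K11 replicate 1. Of the 108 neighbours 8 fell and 3 rose in K11, so genes beside a lost gene were higher as well as lower.

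**Figure D4:**
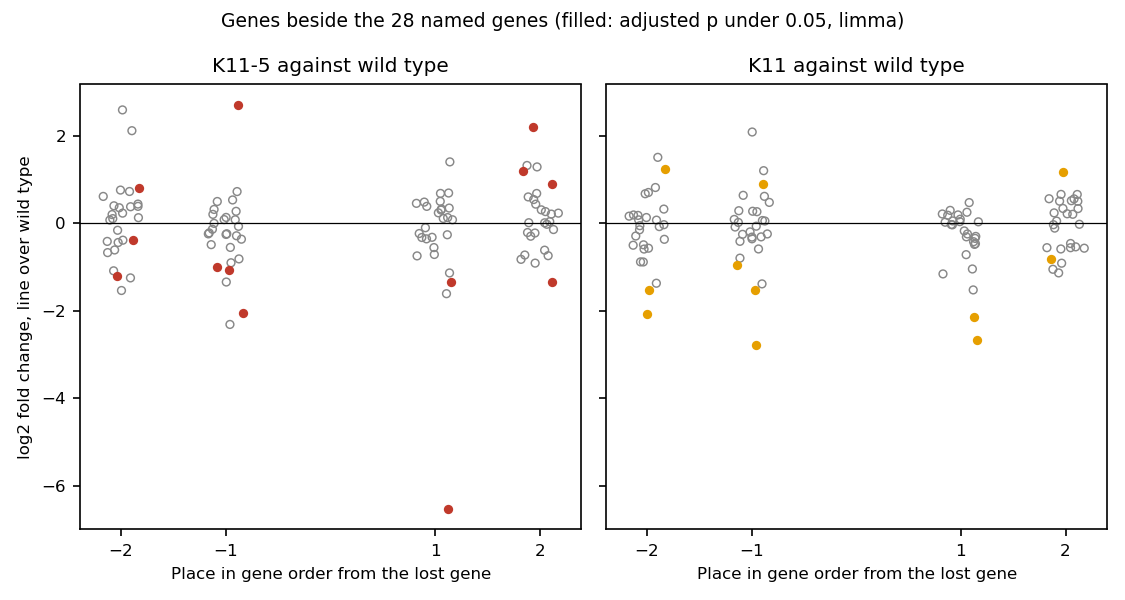
Log2 fold change, line over wild type, of the tested genes at places -2, -1, 1 and 2 in gene order from each of the 28 named genes, for K11-5 (left) and K11 (right); filled points passed limma's adjusted threshold of 0.05 and open points did not. Most points lie near 0 at every place, with 8 falls and 5 rises in K11-5 and 8 falls and 3 rises in K11, and the lowest point is BTLA at -6.53.

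Relatives of the members are genes of the same family, enzyme step or complex. The list of 69 was drawn up once the members were known; 61 were on the array and 53 were tested. In K11-5 against wild type 1 fell (1.89%, against 3.37% of all genes) and 3 rose (5.66%, against 3.48%). In K11 against wild type 3 fell (5.66%, against 4.94%) and 2 rose (3.77%, against 5.04%), while on the deposited scale 15 fell and 2 rose, and 17 fell and 2 rose with arrays centred on their medians. Their median log2 fold change was 0.14 in K11-5 and -0.11 in K11. The shares of all genes called on the deposited scale or with centred arrays are not given here. Without K11-5 replicate 2 or either wild type replicate the number called in K11-5 was 1, and without either K11 replicate it was 7. In K11 it was 1 without either wild type replicate and 11 without K11 replicate 2.

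The other AP-1 subunits on the list were above background in every array. AP1S2, a close relative of AP1S3, had normalized signals of 775 and 772 in K11-5, 1122 and 844 in K11, against 877 and 958 in wild type. AP1G1, the large gamma subunit, rose by 0.81 ± 0.17 in K11-5 (limma's adjusted p = 0.0256), a call lost on the deposited scale, with centred arrays, without K11-5 replicate 2 and without either wild type replicate. For TVP23A, the relative TVP23B had 501 and 471 in K11-5, 552 and 418 in K11, against 471 and 412 in wild type. Neither AP1S2 nor TVP23B was called in either line.

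Sorting nexins gave a case close to the members. SNX4 had normalized signals of 0.884 and 9.81 in K11-5, 2.92 and 8.83 in K11, against 46.1 and 36.8 in wild type. It did not pass the test (limma's adjusted p = 0.0507 in K11-5 and 0.0637 in K11), and its deposited wild type signals of 56.8 and 37.5 left it outside the rule. SNX1 and SNX2 had signals above 100 in every array.

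Against wild type, calls among the aldehyde dehydrogenases ran in opposite directions. ALDH1A3, which makes retinoic acid, had 60.5 and 83.6 in K11-5, 176 and 75.8 in K11, against 8.70 and 4.99 in wild type. It was at least 6.26-fold higher in K11-5 (limma's adjusted p = 0.00364, lost without K11-5 replicate 2) and at least 10.2-fold higher in K11 (limma's adjusted p = 0.00138). ALDH7A1, an enzyme of lysine breakdown, fell by 1.585 ± 0.24 in K11-5 (limma's adjusted p = 0.00619) and by 1.33 ± 0.24 in K11 (limma's adjusted p = 0.0108), both lost without either wild type replicate and the first also without K11-5 replicate 2. So 1 relative of ALDH2 rose in both lines and 1 fell in both.

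Around GNPDA1, the isozyme GNPDA2 had 56.9 and 79.2 in K11-5, 33.6 and 30.02 in K11, against 40.3 and 43.3 in wild type. GFPT2, which runs the hexosamine step in the opposite direction, fell by 1.30 ± 0.30 in K11 (limma's adjusted p = 0.0275, lost without K11 replicate 1 or either wild type replicate) and had -0.94 ± 0.30 in K11-5. FKBP7, like FKBP9 an isomerase of the endoplasmic reticulum, rose by 1.485 ± 0.26 in K11 (limma's adjusted p = 0.0108, lost without either wild type replicate). HINT2, a mitochondrial relative of HINTW, fell by 0.79 ± 0.21 in K11 (limma's adjusted p = 0.0468, lost without any single array other than K11 replicate 2). TPD52L2 rose by 0.66 ± 0.16 in K11-5 (limma's adjusted p = 0.0473, lost without any single array of K11-5 or wild type and on the deposited scale).

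**Figure D5:**
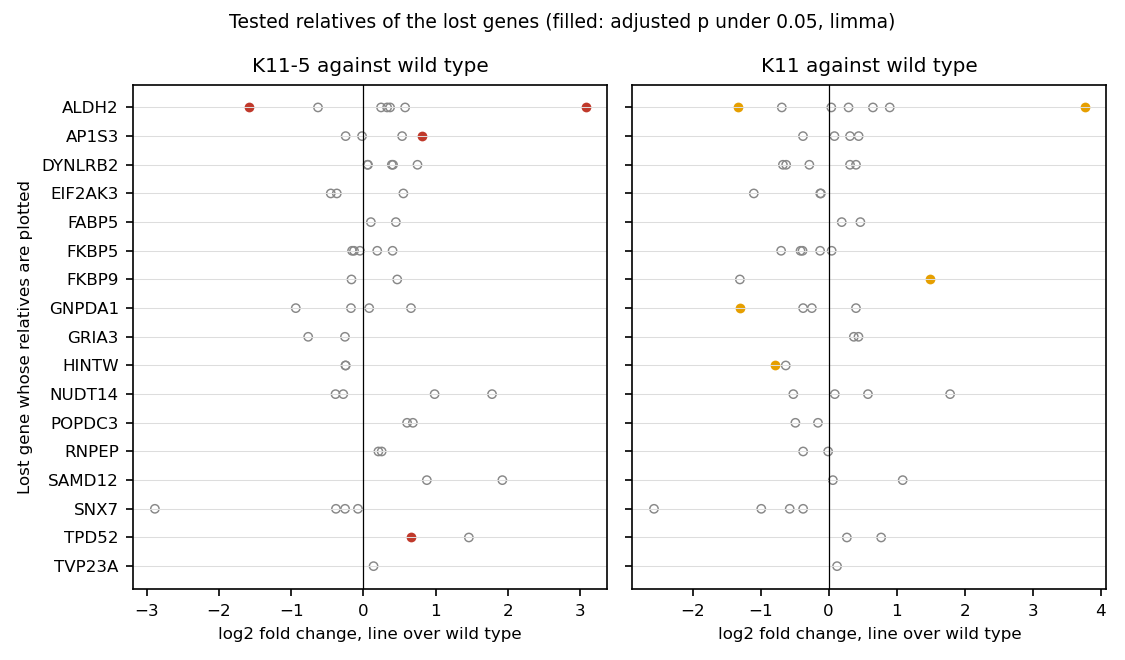
Log2 fold change, line over wild type, of 53 tested relatives in rows by the lost gene they belong to, for K11-5 (left) and K11 (right); filled points passed limma's adjusted threshold of 0.05. Most points are open; the filled ones farthest from 0 are ALDH1A3 at 3.08 and 3.77 in the row of ALDH2.

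The folate cycle around MTHFS was followed through 20 other tested genes. Of these 1 fell and 2 rose in K11-5, where 3.37% of all genes fell and 3.48% rose, and 2 fell and 2 rose in K11, where 4.94% fell and 5.04% rose, with median log2 fold changes of -0.15 and -0.14. MTHFD2, which acts on the product of MTHFS in mitochondria, had normalized signals of 975 and 727 in K11-5, 1225 and 822 in K11, against 400 and 321 in wild type. It rose by 1.23 ± 0.22 in K11-5 (limma's adjusted p = 0.0140) and by 1.48 ± 0.22 in K11 (limma's adjusted p = 0.00547). The K11-5 call was lost without K11-5 replicate 1 or either wild type replicate, and the K11 call without wild type replicate 2. GGH, which trims glutamate from stored folates, fell by 1.05 ± 0.16 in K11 (limma's adjusted p = 0.00523, lost without either wild type replicate). Normalized signals of the cycle genes DLD, GCSH and MTR were at 296.5 or more in every array.

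Lists of genes that the rule did not choose give the setting. They were drawn up with earlier results of these data known, so their shares are a description. Over 11 lists, members left out, 364 genes were tested. In K11-5 30 fell (8.24%, against 3.37% of all genes) and 19 rose (5.22%, against 3.48%), and on the deposited scale 39 fell and 15 rose. In K11 13 fell (3.57%, against 4.94%) and 33 rose (9.07%, against 5.04%), but 40 fell and 17 rose on the deposited scale and 40 fell and 25 rose with arrays centred on their medians. The median of all genes on the deposited scale was -0.10 in K11-5 and -0.35 in K11, and with centred arrays it was -0.29 in K11. The shares of all genes called under these settings are not given here. The 49 calls in K11-5 became 21 without K11-5 replicate 2 and 25 and 12 without wild type replicates 1 and 2, and the 46 in K11 became 16 and 11 without wild type replicates 1 and 2.

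The B cell list covers genes of the lineage that DT40 comes from. Of 39 tested genes 10 fell and 2 rose in K11-5, with a median log2 fold change of -0.90, and 2 fell and 7 rose in K11, with a median of 0.42. Of all genes tested, 3.37% fell and 3.48% rose in K11-5, and 4.94% fell and 5.04% rose in K11. No member was a gene of the B cell list, but members were only 0.389% of the probe sets on in wild type, so nothing is read from this. On the W chromosome 1 of 14 other tested genes fell in K11-5, the ubiquitin ligase gene NEDD4L, a call lost with no filter, without the intensity trend, with the replicate block, without K11-5 replicate 2 and without either wild type replicate, and 0 of 14 were called in K11 by limma, with 2 at an unadjusted p under 0.05.

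For 7 other lists the medians ran from -0.04 to 0.30 in K11-5 and from -0.03 to 0.22 in K11. Beside the counts below stand the 3.37% of all genes that fell and 3.48% that rose in K11-5, and the 4.94% that fell and 5.04% that rose in K11. In cell adhesion and matrix 2 of 29 were called in K11-5, both higher, and 1 fell and 3 rose in K11. In cytokine and growth factor receptors 1 of 37 fell and 2 rose in K11-5, and 1 fell and 1 rose in K11. Wnt, Notch and hedgehog genes gave 1 fall and 1 rise of 34 in each line. Haematopoietic transcription factors gave 5 falls and 4 rises of 43 in K11-5, and 1 fall and 5 rises in K11. Channels and solute carriers gave 3 falls and 1 rise of 40 in K11-5, and 3 falls and 5 rises in K11. Of 22 antiviral genes 1 was called in K11-5, lower, and 2 in K11, both higher. Phosphatases and adaptors gave 2 falls and 1 rise of 44 in K11-5, and 2 calls in K11, both higher. These lists held no member of the lost set, and with members so rare nothing is read from that.

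Cell type markers differed between the groups as well. Over 8 B cell markers the summed normalized signal was 658 to 2767 in K11-5, 9541 to 10890 in K11 and 5403 to 6964 in wild type, and 6 of them were above background in all arrays. CD74, the chaperone of MHC class II, had 935 and 248 in K11-5, 5335 and 5009 in K11, against 1023 and 1244 in wild type. Without it the other 7 summed to 410 to 1832 in K11-5, 4206 to 5881 in K11 and 4380 to 5720 in wild type. Both sums include SH2D6, a gene that the marker list did not name. SH2D6 had 709 and 33.4 in K11-5, 846 and 1282 in K11, against 940 and 1257 in wild type. It is therefore not read as a B cell marker. PAX5, the factor that fixes B cell identity, had 11.4 and 29.05 in K11-5, 29.99 and 10.8 in K11, against 7.72 and 3.76 in wild type, so it was below background in wild type. POU2AF1, a B cell coactivator, had 425 and 2.02 in K11-5, 899 and 1723 in K11, against 1271 and 1544 in wild type. The sums for neuronal markers, 2689 to 2727 in K11-5, 3732 to 4137 in K11 and 1506 to 1544 in wild type, came mostly from STMN2. Of 6 tested, 2 rose in K11-5 and 3 in K11, where 3.48% and 5.04% of all genes rose, and 0 fell. DCX had 120 and 40.8 in K11-5, 160 and 257 in K11, against 4.23 and 6.55 in wild type. GPM6A had 30.4 and 7.82 in K11-5, 153 and 316 in K11, against 3.76 and 14.3 in wild type. Of 11 neuronal markers 4 were at or below background in all arrays. T cell markers, mainly CD3D, summed to 336 to 532 in K11-5, 1019 to 1321 in K11 and 1270 to 1333 in wild type, with 7 of 12 at or below background in all arrays. Myeloid markers summed to 689 to 827 in K11-5, 1063 to 1446 in K11 and 408 to 411 in wild type, mainly from CEBPB and CTSS, while CSF3R, LYZ and LYG2 were below background in every array. Erythroid, fibroblast and germline markers summed to 45.2 to 203 in any array, and of these only ALAS1 was above background throughout. ALAS1 had 77.6 to 137 and stood in the erythroid sums in place of ALAS2, the gene the list named. It is therefore not read as an erythroid marker. For actin, the ratio of 3′ over 5′ signal was 5.28 to 6.29 in K11-5, 9.23 to 9.31 in K11 and 7.15 to 8.10 in wild type. For GAPDH it was 0.798 to 0.914 in K11-5, 0.819 to 0.832 in K11 and 0.892 to 0.917 in wild type. The part of these shifts in the loss of the members was not tested.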

How the data were processed

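The deposited values were intensities on a linear scale for 38535 probe sets on each of 6 arrays. The submitters' processing notes name GCOS, with no version, signal algorithm or scaling stated in the sources used here. The rule was applied to these intensities after 96 AFFX and 57 reporter probe sets were left out. For tests, all sets but AFFX were quantile-normalized, log2(signal + 2) was taken, and the 23063 whose mean reached the 40th percentile were fitted with limma 3.58.1 in R 4.3.3 (a mean per group, eBayes with an intensity trend, 3 residual and 6.96 prior degrees of freedom). Fold changes on this scale understate those of dim sets. The number of arrays limits the precision. The fit was tested on simulated data.

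A gene was represented by its set of highest mean. Of the sets kept, 27168 had 1 gene symbol, 177 several and 11037 none; 26863 were placed in RefSeq GRCg7b by gene identifier and 308 by symbol. Where both arrays of a group lay at or under background (11.4 normalized) the fold is given as at least that of the brighter mean over background. For members and their further sets each signal under background was raised to it. With 1 array of a line above background the fold is still at least that given, and with both above it is a plain fold. Members, function groups and gene lists were chosen with earlier results of these data known; relatives were listed once the members were known. One of the gene lists enters the joint counts and is not reported here by itself. Every member gene with a single symbol is named. Named neighbours and list genes are mostly among those of smallest p. Promoter and protein sequences were not used here.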

Additional observations from a re-analysis of the deposited data

Results flagged for a closer look

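The reporter probe sets do not measure chicken genes and were left out of the rule. They stayed in the normalization and, where bright enough to pass the filter, in the limma fit. Of the reporter sets, 6 exceeded background in both arrays of at least 1 line and in neither wild type array. The brightest had deposited signals of 2758 and 2357 in K11-5, 2231 and 1545 in K11, against 0.893 and 0.469 in wild type. Another had 0.598 and 1.35 in K11-5, 76.3 and 127 in K11, against 0.798 and 1.04 in wild type.

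Among neighbours of the lost genes, 7 differed between the lines by limma's test of K11-5 against K11, where 2.33% of all genes fell and 1.55% rose (4 of the 108 neighbours fell and 3 rose). BTLA beside CD200 differed by -4.395 on the log2 scale (limma's adjusted p = 0.000627), CD200L by -2.52 (limma's adjusted p = 0.00524; both BTLA and CD200L were above background in 1 of 2 K11-5 arrays) and CGGBP1 by -1.67 (limma's adjusted p = 0.0173, lost without K11-5 replicate 2). HSPA2, an HSP70 family gene 613 kb from NUDT14, differed by 3.34 (limma's adjusted p = 0.00375, lost without K11-5 replicate 2). It had normalized signals of 713 and 877 in K11-5, 51.5 and 112 in K11, against 237 and 122 in wild type. CIITA, the activator of MHC class II genes beside TVP23A, differed by -3.43 (limma's adjusted p = 0.0165), with 1.67 and 3.71 in K11-5, 31.5 and 70.6 in K11, against 7.34 and 12.6 in wild type, and was at least 4.15-fold lower in K11-5, a call lost without either K11-5 replicate and without K11 replicate 2. SOCS1L beside SERHL differed by 1.31 (limma's adjusted p = 0.0261), with the larger fall in K11. BVES beside POPDC3 differed by 1.17 (limma's adjusted p = 0.0323).

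Of the relatives, ALDH9A1 differed between the lines by 1.02 (limma's adjusted p = 0.0456) and the dynein light chain gene DYNLT3 by 1.07 (limma's adjusted p = 0.0302). The calls of SOCS1L, BVES, ALDH9A1 and DYNLT3 were lost without either wild type replicate and without either K11-5 replicate, and those of BVES, ALDH9A1 and DYNLT3 also without K11 replicate 1.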

How the results depend on the processing

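The count of 39 members became 21 with a wild type limit of 60 and 17 with a limit of 10 for the lines, 56 with a wild type limit of 30 and 57 with a limit of 20, and 41 to 62 without single arrays. On quantile-normalized signals 30 sets met the rule, all of them members; DYNLRB2, FKBP5, LOC772080 and both SAMD12 sets then fell under 40 in wild type, and EIF2AK3, GRIA3, LOC770574 and TPD52 passed 15 in a line.

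In K11-5 the 8 neighbours that fell became 1 without the intensity trend in the variance, 5 of 55 with 1 neighbour on each side, 15 of 262 with 5, 5 with the mean of all sets of a gene, and 1 to 12 without single arrays. In K11 the 8 became 20 on the deposited scale, 24 with centred arrays, 4 with no filter, 1 without the trend, 5 with 1 neighbour on each side, 17 with 5, and 2 to 10 without single arrays. The 49 list genes called in K11-5 became 2 without the trend and 12 to 61 without single arrays. The 46 in K11 became 0 by limma without the trend, where 82 reached an unadjusted p of 0.05, and 11 to 48. Of the relatives, the 4 called in K11-5 became 0 without the trend, with 13 at an unadjusted p under 0.05, and 1 to 7; the 5 in K11 became 17 on the deposited scale, 19 with centred arrays, 0 without the trend, again with 13, and 1 to 11. These settings for relatives were chosen after seeing the data. The cause of these shifts was not tested. Members called between the lines numbered 0 to 2 without single arrays.

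Replicate numbers did not pair the arrays (r of replicate differences -0.03, -0.04 and 0.06 between groups). With the replicate block 6 and 8 neighbours fell in K11-5 and K11, 52 and 53 list genes and 4 and 7 relatives were called, and 0 members between the lines. Of 101 single calls for neighbours, relatives and leading list genes, 3 held without the trend, 96 with the replicate block, 84 on the deposited scale, and 43 and 30 without wild type replicates 1 and 2; none of these calls turned its direction. With 2 arrays a group and most signals of the members at or below background in the lines, size of loss is for most members known only as a bound.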
